A study of Homo sapiens with 4 samples.

Results

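Cassette exons of the genes for cytosolic ribosomal proteins and translation factors were examined in HEK293T cells, a human embryonic kidney line. Members were all events of the authors' deposited table whose gene symbol marks a large-subunit (RPL), stalk (RPLP) or small-subunit (RPS) ribosomal protein, an initiation factor (EIF) or an elongation factor (EEF). They numbered 418 of 31408 events, 364 of 27483 unique exons and 113 of 9172 genes. A cassette exon is one that some transcripts keep between its 2 neighbours and others leave out; each such arrangement is an event.

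The series compared 2 wild-type clones with 2 clones genotyped as RBFOX2 knockout, each grown from 1 sorted cell and each sequenced as 1 library of total RNA depleted of ribosomal RNA. Per the labels' protocols, the Cas9 plasmid PX459 and a guide plasmid, pgRGFP, with targets on either side of RBFOX2 had been transfected, and genotypes were read by PCR; the same protocol is given for the wild-type clones. RBFOX2, also named RBM9, is an RNA-binding protein that regulates splicing of exons near the element GCATG. The table compares a first with a second set of libraries without naming the genotype of either, so directions are given between sets, and values for single libraries are not given because no label matched those columns. RBFOX2 itself had 0 events, so the table could not check the knockout. All p-values and false discovery rates (FDR) are those of the authors' rMATS model, and the spread between clones is not given here. With 1 library per clone, these p-values compare the 2 sets of these clones and do not extend to other clones of either genotype.

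Ribosomal proteins are made in equal amounts from compact, very highly transcribed genes, many of which carry small nucleolar RNAs (snoRNAs) in their introns. Several, such as RPL3 and RPL12, are known to limit their own output by splicing to forms that are removed by nonsense-mediated decay, the pathway that degrades mRNAs with an early stop codon. Initiation factors recruit the small subunit to the capped mRNA and its start codon, and elongation factors deliver aminoacyl-tRNA and move the ribosome along.

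Differences in exon inclusion between the sets were small for most of these genes. An inclusion level runs from 0, every junction read skips the exon, to 1, every read includes it, after correction for the lengths of both forms, and a difference is the first set minus the second. The median absolute difference was 0.003 over the 418 member events and 0.048 over the whole table. A difference smaller than 0.01 was listed for 65.6% of member events and 13.7% of all events in the authors' deposited table. Only 32 member events, 7.66%, reached an absolute difference of 0.1, against 31.5% of the table. A p-value of 1 was listed for 305 member events, 73%, against 51.4%. Read depth and the inclusion level of each event were not used here. Whether either accounts for the gap between members and table was therefore not tested.

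A call required both an FDR under 0.05 and sets that lay at least 0.1 apart. Only 4 member events in 4 genes were called, 0.957% of members, where 5.15% of all events were. Of these, 2 were higher in the first set (2.77% of the table) and 2 in the second (2.38%). Counted by exon, 4 of 364 member exons were called, against 5.73% of all exons, and by gene 4 of 113, against 13.7% of all genes. The FDR limit alone was passed by 13 member events, 3.11%, against 6.12% of the table; 9 of them were higher in the first set (3.3% of the table) and 4 in the second (2.81%). An unadjusted p-value under 0.05 was listed for 27 member events, 6.46%, against 12% of the table. Of the 13 events that passed the FDR limit, 9 had a difference under 0.1, which is 69.2% of them; over the whole table this share was 15.8%. No test of these shares was made, since events of a gene share reads.

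**Figure D1:**
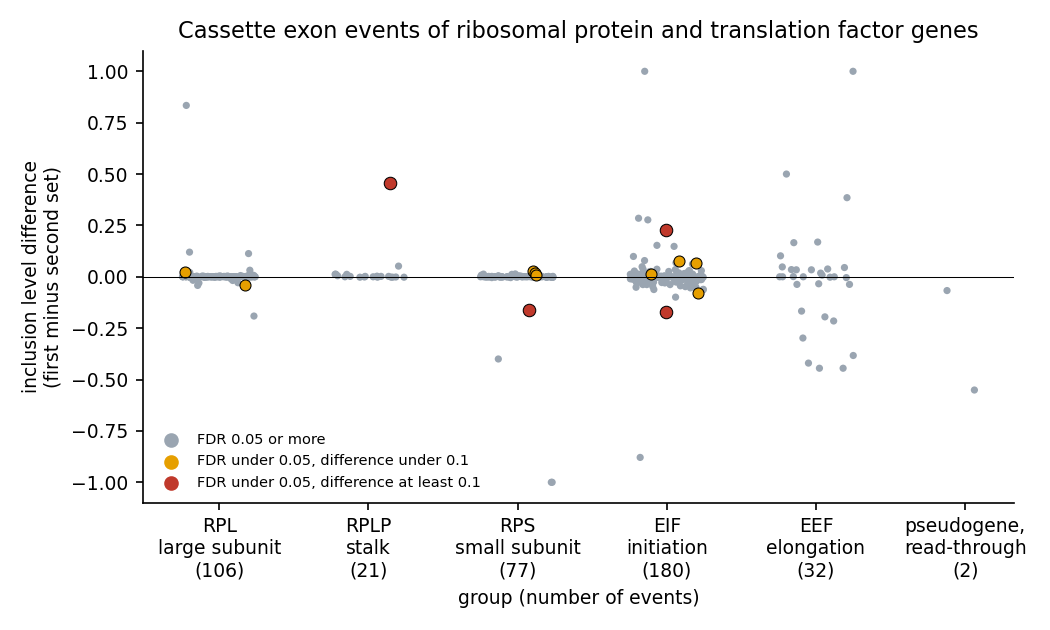
Inclusion level difference (first minus second set, vertical axis) of each of the 418 member events, 1 point per event, by group of genes. Of the points, 65.6% lie within 0.01 of 0; the 4 called events (red) and 9 events with FDR under 0.05 but a difference under 0.1 (orange) stand among ribosomal proteins and initiation factors, while none of the 32 events of elongation factors and EEF2K passed the FDR limit.

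The clearest event lay in RPS24, a small-subunit protein known to be made in forms that differ in their last residues. Its 22-nt exon (ENSG00000138326; chr10:79799962-79799983, plus strand; positions are in hg19, the build in the submitters' processing notes) differed by -0.164 in the authors' deposited table, with a p-value and FDR listed as 0. Inclusion was thus higher in the second set. In GENCODE 29 the exon holds the stop codon of the form that includes it, which reads 130 codons, whereas the form that skips it ends in the next exon after 133 codons. The coding ends of both forms are shown from the last 20 bases of the exon before the junction, with the stop codon in capitals.
RPS24 with the exon: atgttggtgctggcaaaaagTGA
RPS24 without the exon: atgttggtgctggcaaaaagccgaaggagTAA
The stop codon of the first form is the first codon of the cassette exon, so inclusion replaces the coding end of the next exon. A version of the exon that starts earlier, of 25 nt, was given as -0.002 (p-value 1) in the authors' deposited table. The remaining RPS24 event, a 245-nt exon found only in a transcript annotated for nonsense-mediated decay, stood at -1 in the authors' deposited table, also with a p-value of 1.

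The other exon higher in the second set was in EIF4A2, a DEAD-box RNA helicase that unwinds mRNA as part of the cap-binding complex. This 140-nt coding exon (ENSG00000156976; chr3:186502751-186502890, plus strand) differed by -0.169 (FDR 0.00167) in the authors' deposited table. Its sequence is shown with the codons of helicase motif I, which binds ATP, and of motif Ia in capitals.
EIF4A2 exon: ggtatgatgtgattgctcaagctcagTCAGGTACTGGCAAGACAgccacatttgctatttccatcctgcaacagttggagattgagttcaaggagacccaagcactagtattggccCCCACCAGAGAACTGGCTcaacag
EIF4A2 without the exon: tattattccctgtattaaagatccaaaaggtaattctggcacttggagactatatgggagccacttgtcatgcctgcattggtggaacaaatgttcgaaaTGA
The skipping form, shown from 20 bases before the junction to its first stop codon, shifts frame and ends after 96 codons, against 407 with the exon. Its stop codon lies 648 nt before the last exon junction, and GENCODE 29 annotates this junction in a nonsense-mediated decay transcript. The other 6 events of EIF4A2 ranged from -0.075 to 0.021 and none passed the FDR limit. The intron next to the exon carries the snoRNA SNORD2, and EIF4A2 holds 5 annotated snoRNAs in all.

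EIF2D, with an exon higher in the first set, encodes a factor that can place initiator tRNA without eIF2 and acts in reinitiation. Its 104-nt exon (ENSG00000143486; chr1:206773087-206773190, minus strand) differed by 0.229 (FDR 0.00137) in the authors' deposited table. As listed, the event joins the exon directly to a 90-nt exon, so that the 150-nt exon between them is absent from both forms. The junction into the exon is annotated, and reads across it count as inclusion even where the 150-nt exon follows. The difference of 0.229 therefore need not reflect a form without the 150-nt exon. The exon and the skipping form are shown, the latter from 20 bases before the junction to its stop codon in capitals.
EIF2D exon: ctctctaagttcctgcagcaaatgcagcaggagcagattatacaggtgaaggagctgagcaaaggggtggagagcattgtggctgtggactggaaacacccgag
EIF2D without the exon: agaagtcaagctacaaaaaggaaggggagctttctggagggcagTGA
Without the exon the reading frame ends after 324 codons, 455 nt before the last exon junction, whereas the form with it would run for 534 codons. The junction from the exon to the 90-nt exon is in no GENCODE 29 transcript of EIF2D, so this inclusion form was built from annotated exons; the skipping junction is annotated in a nonsense-mediated decay transcript. The neighbouring 150-nt exon of EIF2D differed by 0.068 (p-value 0.0181, FDR 0.196) in the authors' deposited table.

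The difference furthest from 0 among called members was that of RPLP0, the base of the ribosomal stalk that recruits elongation factors. A 105-nt exon (ENSG00000089157; chr12:120637849-120637953, minus strand) differed by 0.457 (FDR 0.000436) in the authors' deposited table. In the GENCODE 29 transcript read here, which ends without a stop codon, the annotated start codon is at position 94 and the last 12 bases are coding. The 102-nt exon before it is partly coding in at least 1 other transcript, so the coding sequence of RPLP0 need not start here.
RPLP0 exon, coding part with the start codon in capitals: ATGgcctttgag
This value belongs to 1 of 3 pairings of the exon. The called event joins it to a distant 26-nt exon and leaves out the 102-nt exon between them. Neither its upstream nor its skipping junction is in a GENCODE 29 transcript of the gene. The junction after the exon is annotated, so reads counted as inclusion can come from other transcripts of RPLP0. With the 134-nt upstream exon the same RPLP0 exon had 0.052 at a p-value of 0.646, and with the 102-nt exon -0.001 at a p-value of 1, both in the authors' deposited table. Across its 15 events, RPLP0 therefore differed by at least 0.1 in the called event alone.

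**Figure D2:**
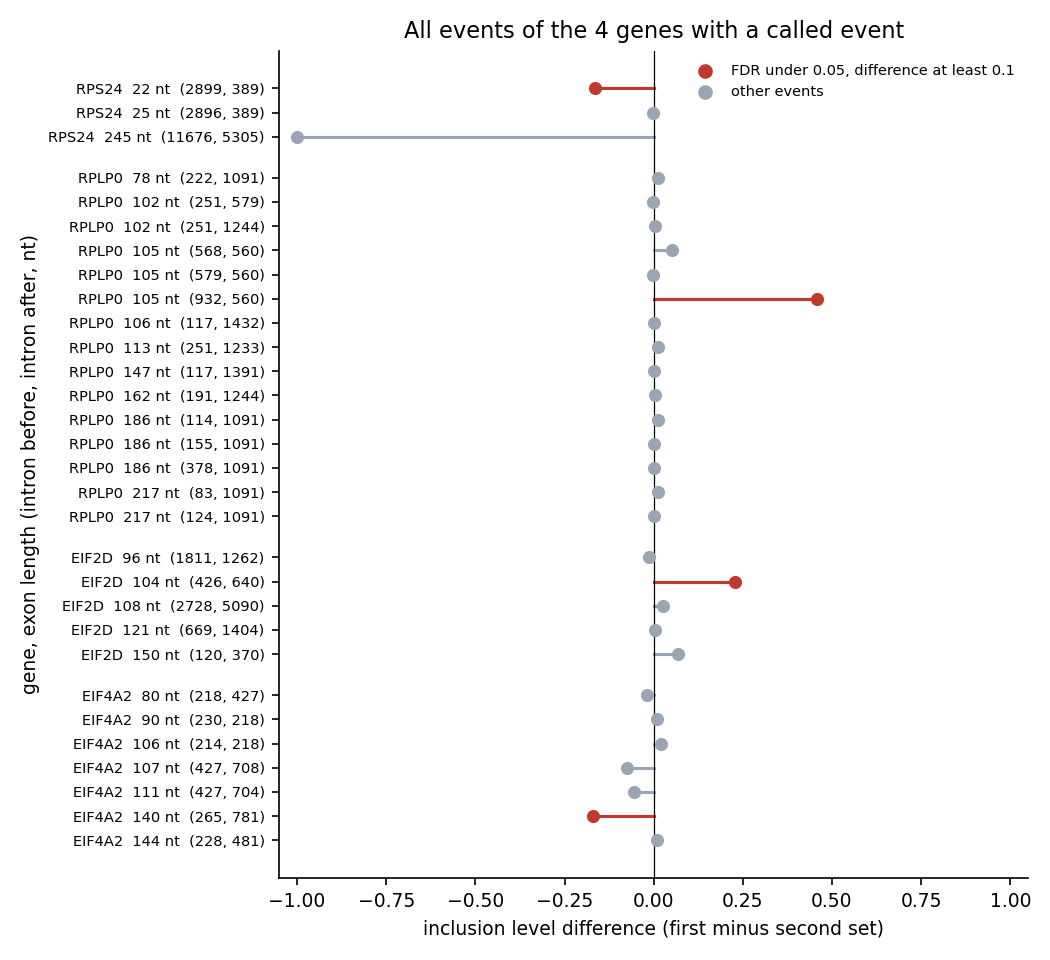
Inclusion level difference (first minus second set, horizontal axis) of every event of the 4 genes with a called event; rows give exon length and the lengths of the introns before and after. Each gene has 1 called event (red), and all but 1 of the other events (grey) lie between -0.075 and 0.068; the RPS24 event at -1 had a p-value of 1.

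Small differences made up the rest of the events that passed the FDR limit. Among large-subunit proteins, RPL24 had the lowest p-value after RPS24: its 64-nt exon (chr3:101401273-101401336, minus strand) differed by 0.022 (FDR 8.47e-12) in the authors' deposited table. The exon is coding and is shown because its omission changes the frame; the skipping form would end after 121 codons in place of 157.
RPL24 exon: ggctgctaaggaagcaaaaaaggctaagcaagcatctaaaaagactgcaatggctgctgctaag
An untranslated 98-nt exon before the start codon of RPL17 differed by -0.039 (FDR 4.48e-05) in the authors' deposited table. With another upstream exon, this RPL17 exon was given as -0.018 (p-value 0.158) in the authors' deposited table.

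Among small-subunit proteins, RPS2, which lines the path of mRNA into the ribosome, had 0.03 for a 713-nt exon found only in a transcript annotated as retaining an intron (FDR 0.000311) and 0.017 for the 90-nt coding exon within it (FDR 0.00329) in the authors' deposited table.

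Initiation factors accounted for 4 of these events. EIF4E2, a cap-binding protein that represses translation, had 0.077 for a 135-nt exon (FDR 0.000398) in the authors' deposited table. For a 78-nt exon of EIF3K, a subunit of the eIF3 complex that holds the small subunit, the authors' deposited table gave 0.069 (FDR 0.000693). EIF4G3, a scaffold that joins the cap-binding protein to the ribosome, had -0.081 for a 114-nt exon (FDR 0.00155) in the authors' deposited table. The related EIF4G2, which lacks the site for the cap-binding protein, had 0.012 for a 66-nt exon (FDR 0.0113) in the authors' deposited table. The exons of these 4 genes have lengths divisible by 3 and are fully coding in at least 1 transcript. Just outside the limit stood EEF2K, the kinase that inactivates elongation factor 2 (0.102, FDR 0.0718), EIF4B (-0.032, FDR 0.0913) and RPL9 (0.032, FDR 0.136), all in the authors' deposited table.

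Groups of members differed in how far their events lay from 0. For 106 events of 38 large-subunit genes the median absolute difference was 0.001, with 2 past the FDR limit and 0 called. For 77 events of 25 small-subunit genes it was 0.002, with 4 past the limit and 1 called. The 21 stalk events, all in RPLP0, RPLP1 and RPLP2, had 0.002 and 1 call. Of the 66 ribosomal protein genes, 48 had no event with a difference of 0.01 or more, against 571 of 9172 genes in the table. RPL3 and RPL12 were among them: the single event of RPL3 had 0.001 (p-value 0.843), and the 6 events of RPL12 ranged from -0.001 to 0.001. The RPL3 exon is fully coding, and only skipped exons were listed. Retained introns and other splice sites of RPL3 and RPL12 were therefore not measured.

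The 180 events of 38 initiation factor and regulator genes had a median absolute difference of 0.008, with 6 past the FDR limit and 2 called. Within them, 58 events of 11 eIF3 subunits had 0.004 and 0 calls, and 37 events of the eIF4G scaffolds had 0.016 and 0 calls. The 9 events of the kinases that phosphorylate eIF2 (EIF2AK1, EIF2AK2 and EIF2AK4) had 0.03 and 0 calls. Another 2 events came from symbols that the rule also matches, the pseudogene EEF1DP3 and the read-through EEF1E1-BLOC1S5, and neither was called.

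Elongation factors and EEF2K had a median absolute difference of 0.0415 over 32 events, 43.8% of which differed by at least 0.1, and none passed the FDR limit. Most of these events came from EEF1D, the exchange subunit of elongation factor 1, whose 20 events in 15 exons had a median absolute difference of 0.182. In 13 of the 20 the absolute difference reached 0.1; over all 20, differences ran from -0.445 to 1, and the lowest p-value was 0.0156. Of these 13 events, 11 lay in untranslated exons before the start codon, several of which overlap and pair with more than 1 upstream exon. The other 15 member events in untranslated exons of this kind, in 12 genes, ranged from -0.039 to 0.062. Without EEF1D, 19 of 398 member events, 4.77%, differed by at least 0.1.

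**Figure D3:**
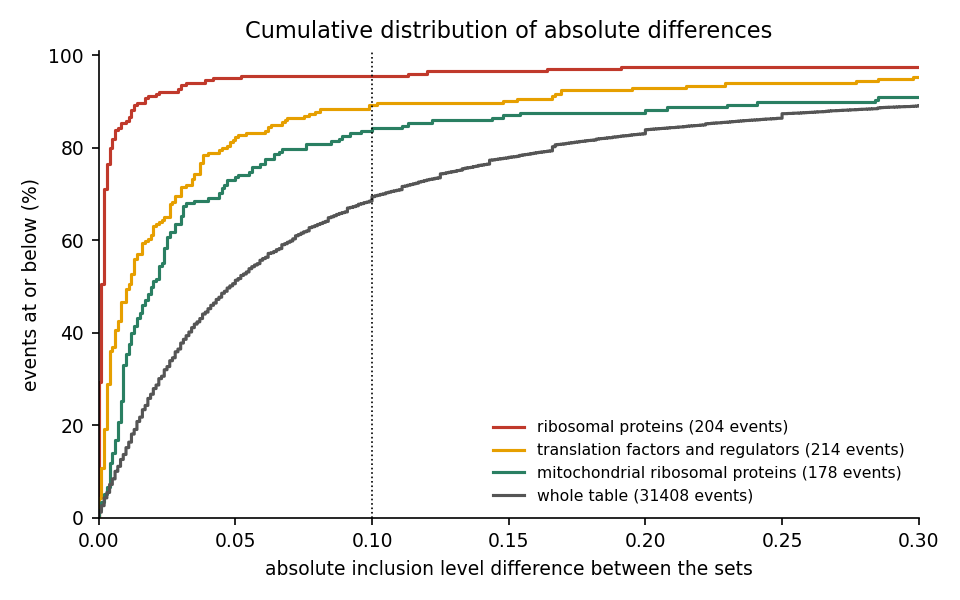
Percent of events (vertical axis) at or below each absolute inclusion level difference (horizontal axis, shown to 0.3; dotted line at 0.1) for ribosomal proteins, translation factors and regulators, mitochondrial ribosomal proteins and the whole table. The curve of ribosomal proteins, with a median of 0.001, rises first and that of the whole table, with a median of 0.048, last.

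Exon lengths of members were near those of the table, and introns were shorter next to exons of ribosomal proteins. The median length was 114.5 nt for member exons and 117 nt over the table, and 37.1% of member exons had a length divisible by 3 (Wilson 95% interval 32.3% to 42.2%, counting error only), against 40.7%. The median introns before and after the exon were 517.5 and 491.5 nt for ribosomal protein events, 1721 and 1398 nt for translation factor events and 2246 and 2095 nt over the table. Both introns were under 1000 nt in 48% of ribosomal protein events, 20.1% of translation factor events and 17.3% of all events. Among events of this kind, 3.55% of 141 member events and 26.9% of 5449 in the table differed by at least 0.1; with a longer intron the shares were 9.75% and 32.5%.

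**Figure D4:**
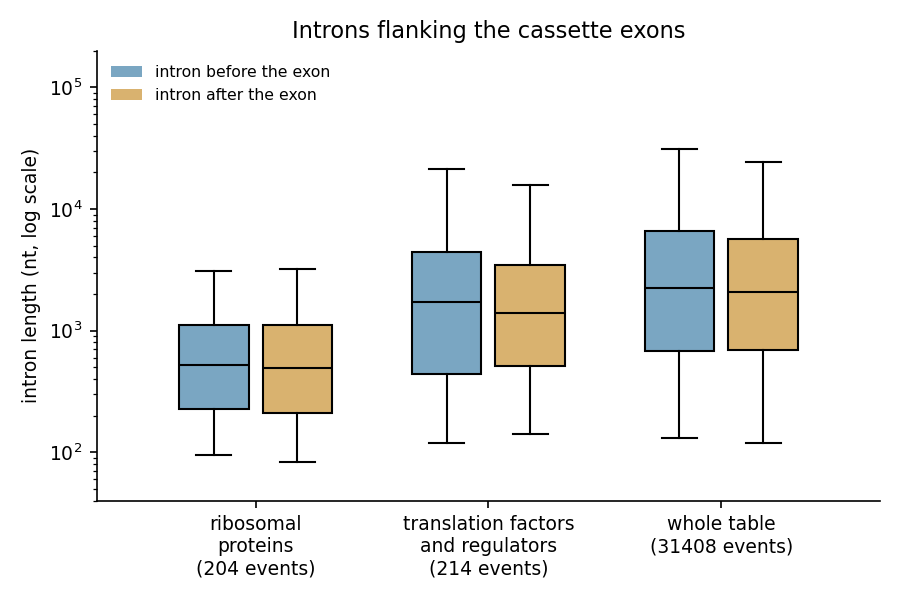
Length of the introns before and after the cassette exon (vertical axis, log scale, nt) for ribosomal proteins, translation factors and regulators, and the whole table; boxes give quartiles and median, whiskers the 5th and 95th percentiles of events. Median introns are 517.5 and 491.5 nt for ribosomal proteins and 2246 and 2095 nt over the table.

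Annotated snoRNAs were more frequent in member genes than over the table, though most member genes held none. A snoRNA is annotated within 25 of the 66 ribosomal protein genes, 34 of all 113 member genes and 220 of 9072 genes of the table found in GENCODE 29. In an intron next to the cassette exon, one was annotated for 59 of 335 matched member exons, 17.6%, against 0.855% of matched exons in the table. The 68 member events of this kind had a median absolute difference of 0.001, and 1 was called, that of EIF4A2. The 296 matched member events with no snoRNA there had 0.004 and 1 call. A snoRNA lay next to 27.8% of matched ribosomal protein exons and 8.67% of matched translation factor exons. The groups thus also differ in gene family, and a link of snoRNAs to the differences was not tested. The share called over all events of the table next to a snoRNA is not given here.

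By annotation, 59.4% of matched member exons were fully coding (54.1% to 64.5%), against 66.2% over the table, and 12.8% lay only in transcripts annotated for nonsense-mediated decay (9.67% to 16.8%), against 10.2%. Of 47 member events of the latter kind, 0 were called and 1, 2.13%, differed by at least 0.1, against 5.09% and 33.1% of 2908 such events in the table. The motif GCATG, read on the transcript strand, was found in 42 of 335 matched member exons, 12.5%, against 11.6% of all matched exons. The flanking introns were not read.

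Reads of these genes can be shared with processed pseudogenes, which retain exon junctions. In GENCODE 29, 65 of the 66 ribosomal protein genes have a pseudogene named after them. Of the 39 junction sequences of 40 bases around the 13 events past the FDR limit, 7 were also found in a transcript of another gene. Those of RPL24, RPL17, RPS2 and EIF4E2 were among them, so the small differences of these genes are uncertain. For RPL17 the other gene was the read-through RPL17-C18orf32, which is not a pseudogene. None of the 12 junctions of the 4 called events was found in another gene. Only exact matches were sought, and junctions of RPLP0 and EIF2D are in no transcript of their own gene, so reads could still be shared.

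Genes that act beside the members were counted from lists taken from general knowledge. Other cytosolic ribosomal proteins (21 events in 4 genes, RPSA among them) had a median absolute difference of 0.001 and 0 calls. Cytosolic aminoacyl-tRNA synthetases had 3 calls among 97 events (3.09%, against 5.15% of all events), in 2 of 22 genes. In the authors' deposited table, 1 was higher in the second set, a 180-nt exon of KARS (-0.119). The other 2 were higher in the first set, overlapping exons of 109 and 44 nt of WARS (0.179 and 0.228). Mitochondrial ribosomal proteins had 10 calls among 178 events (5.62%, near the 5.15% of the table), in 5 of 53 genes, where 13.7% of all genes had a call. Of these, 8 were higher in the first set (2.77% of the table) and 2 in the second (2.38%). Among the 8 were exons of MRPL52 (0.478) and MRPL55 (0.241, 0.425 and 0.6) in the authors' deposited table. Most of the 8 were MRPL55 events, from overlapping exons of 67 and 585 nt that are each listed in more than 1 event. MRPL48 had a call in each direction, -0.5 for a 125-nt exon and 0.834 for a 121-nt exon, in the authors' deposited table.

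Termination, recycling and rescue factors had 6 calls among 62 events (9.68%, against 5.15% of the table), in 2 of 12 genes, where 13.7% of all genes had a call. In the authors' deposited table they lay in SECISBP2, which binds the selenocysteine element (5 calls, from -0.3 to 0.139), and GTPBP1 (0.431). The calls of SECISBP2 include overlapping exons and an exon listed in more than 1 event. At a minimum difference of 0.2 they had 3 calls (4.84%), against 3.54% of the table. Factors that bind the poly(A) tail, cap-binding partners and kinases of translation had 9 calls among 114 events (7.89%, against 5.15% of the table). The 9 lay in 4 of 19 genes, where 13.7% of all genes had a call, and most were in GIGYF2 and LARP4. At a minimum difference of 0.2 there were 5 (4.39%, against 3.54%), and at an FDR under 0.01 there were 4 (3.51%, against 3.49%). In the authors' deposited table the 9 calls included 0.516 and 0.512 for exons of GIGYF2, a partner of EIF4E2. They also included 0.1 and -0.205 for exons of LARP4, which binds poly(A). The median absolute differences of these lists were 0.015 for synthetases, 0.0195 for mitochondrial ribosomal proteins, 0.022 for termination factors and 0.0315 for the last list, each between the values of the members and of the whole table.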

How the data were processed

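The authors deposited 1 table of skipped-exon events with the p-value, FDR and inclusion level difference of each event and 2 effective lengths, an rMATS output per the file headers. STAR 2.7.3a and hg19 are named in the submitters' processing notes; the rMATS version and annotation are not given in the sources used here. The 6 columns with values per library were not used, because no label matches them; depth per library and event is therefore not reported. That the difference is first minus second set follows the rMATS convention. Recomputing the Benjamini-Hochberg adjustment over all 31408 events gave back the deposited FDR (largest gap 1.11e-16).

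Members were chosen by symbol. Members and gene lists were chosen with earlier results of these data known. Named were all member events at an FDR under 0.05, the next 3 by FDR, all events of called exons and up to 5 called events per list; other named events were chosen after their values were seen. A result that falls under the rule is not reported here. Exons were matched to GENCODE 29 (GRCh38) transcripts by gene, exon length and flanking intron lengths, without coordinates, and sequences, stop codons and snoRNAs were read there; an event spanning a left-out exon was matched along its transcript. The 66 ribosomal protein genes were among 83 protein-coding RefSeq symbols that the rule matches, and 45 of 70 factor symbols had events. The code for calls and adjustment was run on simulated p-values with planted events past both limits. This checks the code alone, not the rMATS model or the calls. Tables were handled with pandas 2.3.3 in Python 3.11.15, with numpy 2.4.6 and, for figures, matplotlib 3.10.9.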

Additional observations from a re-analysis of the deposited data

How the results depend on the processing

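The 4 called member events, in 4 exons and 4 genes, became 1, 1 and 1 under Bonferroni correction over the table (RPS24), 2, 2 and 2 at a minimum difference of 0.2 (RPLP0 and EIF2D), and 13 events, 13 exons and 12 genes with no minimum difference; a stricter or absent limit accounts for these counts by construction. They were 4 at an FDR under 0.01 and 5 at an FDR under 0.1, where EEF2K is added. For exons, the count stayed 4 after multiplying the lowest p-value by the number of events. Leaving out pseudogene and read-through symbols or the eIF2 kinases, which held no called event, could not change the 4. Under each limit the share of member events stayed below that of the table. Of the lists, termination factors had 3 calls at a minimum difference of 0.2, poly(A) and signalling factors 4 at an FDR under 0.01 and 5 at 0.2, and tRNA synthetases 1 at either limit. Shares of exons by length and annotation stayed within their Wilson intervals with 1 exon per gene or by event. No paired analysis was possible because the library columns have no numbers that could pair clones, and leaving out each clone was not run for the same reason.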

Other observations

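Large differences without a call were rare outside EEF1D and mostly lay at a p-value of 1. In the authors' deposited table, 28 of 418 member events differed by at least 0.1 and were not called, against 8281 of all 31408 events. Of the 28, 14 lay in each direction, and 15 had a p-value of 1. EIF4G3 had 1 for a 61-nt exon between introns of 65338 and 60328 nt, RPL5 0.834 for a 203-nt exon, EIF4G1 -0.879 for an 87-nt exon and RPS3 -1 for a 94-nt exon, each at a p-value of 1 in the authors' deposited table. As paired in these 4 events, the exons matched no GENCODE 29 transcript with both flanking introns. The EIF4G1 exon is fully coding in transcripts with other neighbours. In its other events it differed by -0.019, 0.007 and -0.023. Among these 28 events, the lowest p-values outside EEF1D and EEF2K were those of EIF4B (a 47-nt exon, 0.153, p-value 0.0171), EIF2AK4, a kinase that senses uncharged tRNA (a 169-nt exon, 0.148, p-value 0.0195), and RPL23A (a 17-nt exon next to a snoRNA, 0.12, p-value 0.0344). The events named here were picked with their values in view.

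Of the 39 member exons listed in several events, 11 had differences of both signs in the authors' deposited table. The same count over all exons is not given here.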
